A study of Bos taurus with 35 samples.

Results

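CD163, ITGAM and MMP9 are 3 genes of myeloid cells, the lineage of monocytes, macrophages and neutrophils, and their RNA was counted in fat and muscle of Hanwoo, the native cattle of Korea. They were taken by their Ensembl identifiers, ENSBTAG00000019669 for CD163, ENSBTAG00000047238 for ITGAM and ENSBTAG00000020676 for MMP9, with earlier results of these data known. They are 3 of the 24596 genes in each count table and 3 of the 31 genes whose identifier could be paired with a name. The study itself had picked all 3 for qRT-PCR among genes that differed between depots in these same libraries, so the direction of a depot difference below is not independent evidence.

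The 34 libraries came from 9 animals of 30 months, for which the labels name no treatment, with 9 libraries of omental fat (O), 8 of fat within muscle (intramuscular, I), 9 of fat under the skin (subcutaneous, S) and 8 of muscle itself. By the labels, replicates 1, 4 and 7 are females, replicates 2, 5 and 8 castrated males and replicates 3, 6 and 9 males, although the methods of the study speak of steers. Intramuscular fat of replicate 9 was not analysed here, and replicate 7 had no muscle library among the samples read. Intramuscular and subcutaneous fat came from a rib section and omental fat from beside the abomasum, each as a whole piece of tissue with all the cells in it. The counts on genes summed to between 3726376 and 7184022 in a library, and the medians of the 4 tissues lay between 5389329 and 5757418. The muscle gene TPM2 reached 33381 ± 10200 CPM (SD, n = 8) in muscle, 1472 ± 392 in I, 162 ± 41.0 in O and 152 ± 70.3 in S. The deviations of muscle replicate 4 from its tissue mean correlated at -0.0805 to 0.0451 with those of the fat of its own animal, and muscle replicate 8 had the lowest median r with the other muscle libraries, 0.908 against 0.930 to 0.963. The muscle comparisons are therefore also given without these replicates.

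CD163 is the scavenger receptor by which monocytes and tissue macrophages take up complexes of haemoglobin and haptoglobin. ITGAM encodes the integrin alpha M chain, which joins the beta chain ITGB2 into a receptor for complement fragments and adhesion ligands on neutrophils, monocytes and macrophages. MMP9 is a secreted gelatinase that cuts denatured collagen and basement membrane collagen, and it is stored in neutrophil granules and released by activated macrophages. Fat holds resident macrophages, and the receptor genes are widely used as markers of such cells. Because each library was made from a whole piece of tissue, the cells that held the RNA of a gene are not known, for MMP9 as for the receptors. Fewer myeloid cells, less RNA of a gene per cell and RNA of other cells cannot be told apart in any value below.

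The primer pairs that the study used to amplify the 3 transcripts in qRT-PCR are printed here because they define the assay by which these genes were followed outside the sequencing. They are 22 or 23 bases long, with a GC content between 47.8% and 54.5%, and are written 5′ to 3′.
CD163 forward: agtcccatctttcactctgccc
CD163 reverse: ttgacctccactcttccttcaca
ITGAM forward: atccaatctactccagcaaccca
ITGAM reverse: gagacaaacctcttcatccgctc
MMP9 forward: tgagggtaaggtgctgctgttc
MMP9 reverse: tactgaaagatgtcgtgcgtgct
The reads were mapped to bosTau6, and no genome of that build was used here, so no coordinates are given. In the RefSeq gene table of another assembly, ARS-UCD2.0, none of the 3 genes overlapped a neighbouring gene. There CD163 lies next to CLEC4E, ITGAM next to TRIM72, and MMP9 between ZNF335 and SLC12A5.

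CD163 RNA was plentiful in omental and subcutaneous fat, lower in intramuscular fat and scarce in muscle. In O it ranged from 295 CPM (counts of a gene per 1000000 counts on genes, scaled with TMM) through a median of 629 to 960, with a mean of 622 ± 181 (SD, n = 9). In S it ranged from 219 through 535 to 1106, with a mean of 566 ± 280 (n = 9). These 2 depots overlapped broadly, and the highest S level, in replicate 3, lay above the highest O level, in replicate 2. In I the level ranged from 57.8 through 109 to 190 CPM, with a mean of 111 ± 45.4 (n = 8), so that the highest I library lay under the lowest S library. In muscle it ranged from 4.04 through 15.2 to 33.4 CPM, with a mean of 16.2 ± 10.4 (n = 8), on 14 to 96 counts per library. The CD163 order was thus O, S, I and muscle, and only the neighbours O and S did not separate.

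ITGAM followed the order O, S, I and muscle at lower counts. Its level in O ranged from 43.3 through 127 to 221 CPM, with a mean of 122 ± 60.9 (SD, n = 9). In S it ranged from 21.8 through 55.9 to 70.8, with a mean of 53.3 ± 17.0 (n = 9). The O libraries of replicates 1 and 7, at 43.3 and 53.3 CPM, lay within the range of S, and the other O libraries lay above it. In I the level ranged from 6.25 through 10.6 to 20.7 CPM, with a mean of 12.4 ± 5.15 (n = 8). In muscle it ranged from 0.416 through 1.61 to 2.92 CPM, on 1 to 10 counts per library, with a mean of 1.56 ± 1.02 (n = 8). The I libraries fell between the other fat and muscle without touching either, and S and O were the only neighbours that overlapped.

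MMP9 had the widest range between animals of the 3 genes in each fat depot. In O its level ranged from 8.71 CPM in replicate 1 through a median of 37.0 to 183 in replicate 9, a range of 21.0-fold, with a mean of 62.9 ± 60.5 (SD, n = 9). In S it ranged from 0 in replicate 1 through 2.43 to 21.6 in replicate 8, with a mean of 7.18 ± 7.42 (n = 9). A count of 0 in S of replicate 1 allows a level of up to 0.449 CPM by the limit of 3 counts, which covers counting error only. In I it ranged from 0.369 in replicate 6 through 2.80 to 18.3 in replicate 5, a range of 49.6-fold on 2 to 126 counts. The I mean was 4.46 ± 5.86 (n = 8), and 126 of its 227 counts came from replicate 5. In muscle MMP9 had a total of 2 counts, 1 each in replicates 3 and 9, and was listed at 0 in 6 of 8 libraries, where the limit of 3 counts allows 0.851 to 1.25 CPM. I and S overlapped almost wholly, O overlapped both, and muscle lay at the floor of the measurement.

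**Figure D1:**
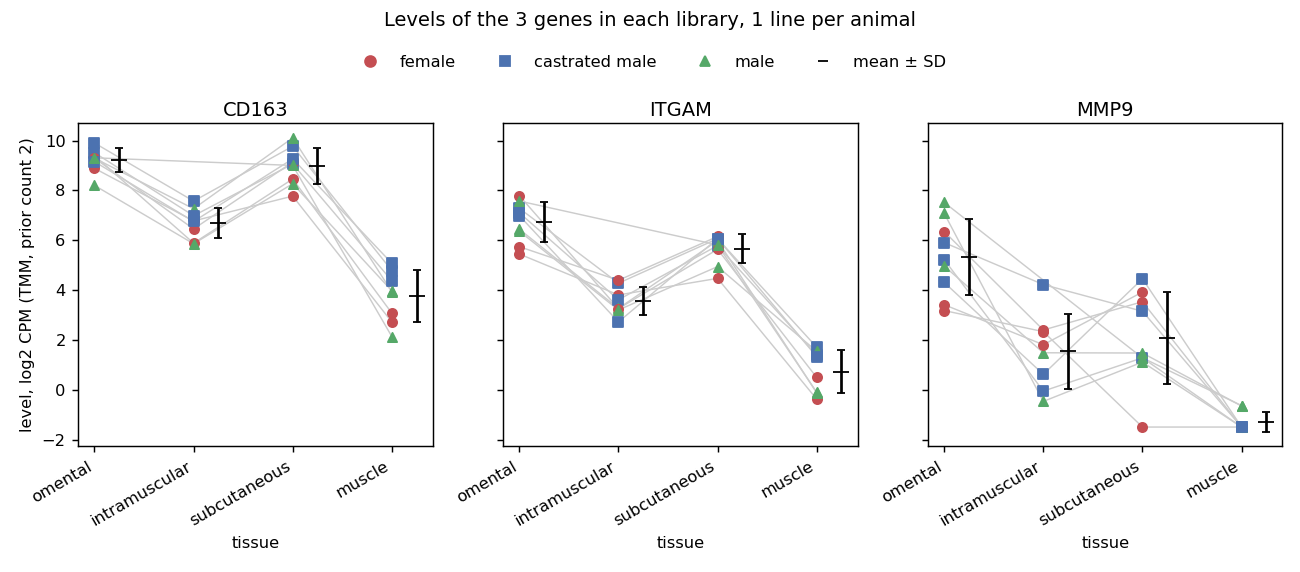
Level of CD163, ITGAM and MMP9 (log2 CPM with TMM and a prior count of 2, vertical axis) in each library of the 4 tissues, with grey lines joining libraries of an animal, symbols for the sex labels and black bars for mean ± SD. CD163 and ITGAM were lower in intramuscular than in other fat in each of 8 animals, whereas the points of MMP9 spread over a 21.0-fold range within omental fat alone.

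The spread between animals placed MMP9 among the most variable genes of each fat depot. The SD of its log2 CPM was 1.53 in O, 1.51 in I and 1.86 in S, at the percentiles 99.7, 99.2 and 99.8 of 12732 genes. The SD of CD163 was 0.47 in O, 0.61 in I and 0.73 in S, at the percentiles 75.4, 76.6 and 91.7. The SD of ITGAM was 0.80 in O, at the percentile 95.4, and 0.57 in both I and S, at the percentiles 72.7 and 83.0. These are descriptions over genes of unlike depth, and MMP9 rests on 2 to 126 counts per library in I and 0 to 132 in S.

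Omental against intramuscular fat asked how a visceral depot differs from the fat within muscle. All 3 genes were higher in O, where 15.5% of 13156 genes tested were higher at an FDR under 0.01. CD163 was higher by 2.46 on the log2 scale (SE 0.25, edgeR adjusted p = 2.61e-07), and the within-animal ratio ranged from 4.09 to 11.5. ITGAM was higher by 3.28 (SE 0.34, edgeR adjusted p = 2.56e-07), with within-animal ratios from 2.57 to 24.0. MMP9 was higher by 3.76 (SE 0.72, edgeR adjusted p = 3.03e-04), with ratios from 1.86 in replicate 1 to 366 in replicate 6. Each gene was higher in O than in I in 8 of 8 animals, and the libraries of the 2 depots did not overlap for CD163 and ITGAM but did for MMP9. The calls were the same under the 19 alternatives run for each gene, but the size for MMP9 was 4.65 without replicate 5, the animal with the highest MMP9 in I, and 3.36 without replicate 6. FASN, the fatty acid synthase of fat cells, was also higher in O than in I, by 2.03 (SE 0.34, edgeR adjusted p = 8.99e-05), while TPM2 was lower in O by 3.21 on that scale. Over 149 genes nearly restricted to muscle, the I libraries stood at a median of 0.137% to 2.31% of the muscle level, and the part of tissue composition in the myeloid differences was not tested.

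Omental against subcutaneous fat compared the visceral depot with fat under the skin. Only MMP9 of the 3 genes passed the threshold without a term for the animal, and only ITGAM with the animal as a block. The background was small, with 2.0% of 12966 genes higher in O at an FDR under 0.01. CD163 differed by 0.13 on the log2 scale (SE 0.26, edgeR adjusted p = 0.849), with the higher level in O in 6 of 9 animals and within-animal ratios from 0.568 to 2.17. ITGAM was at 1.19 above S (SE 0.29, edgeR adjusted p = 0.0137), past an FDR of 0.05 but not of 0.01, with the higher level in O in 8 of 9 animals. With the animal as a replicate block, ITGAM passed at 1.11 (SE 0.21, edgeR adjusted p = 0.00378). MMP9 was higher in O by 3.13 (SE 0.69, edgeR adjusted p = 0.00658), in 7 of 9 animals. With the animal as a replicate block the MMP9 difference was 3.04 (SE 0.70, edgeR adjusted p = 0.01004), just over the threshold of 0.01, and with the sex label as a covariate it was 2.94 (edgeR adjusted p = 0.0186). It also missed 0.01 without any of the replicates 2, 3, 4, 5, 6 or 9, with adjusted p from 0.0155 to 0.0341 in edgeR, and was smallest, at 2.60, without replicate 9. All these values were under 0.05.

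Intramuscular against subcutaneous fat compared 2 depots of the same rib section, and both receptor genes were called while the protease was not. CD163 was lower in I, at -2.31 on the log2 scale (SE 0.31, edgeR adjusted p = 9.09e-06), and ITGAM was lower at -2.07 (SE 0.26, edgeR adjusted p = 3.87e-06). Both were lower in I in 8 of 8 animals with no overlap between the depots, against a background of 15.2% of 13077 genes higher in S. In a given animal the I level of CD163 was 0.139 to 0.50 of the S level, and that of ITGAM 0.0936 to 0.624. MMP9 was at -0.64 (SE 0.74, edgeR adjusted p = 0.502) and was lower in I in 5 of 8 animals. Over the alternatives the MMP9 value ranged from -1.47, without replicate 5, to -0.09, with an adjusted p of 0.108 or more in edgeR and DESeq2. FASN and DGAT2, genes of lipid synthesis in fat cells, were also lower in I than in S, at -2.78 and -2.22, and the muscle genes TPM2 and EEF1A2 were higher, at 3.30 and 6.38 (edgeR adjusted p between 3.38e-08 and 2.23e-05 for the 4 genes), and their part in the receptor differences was not tested. Whether MMP9 differed from the receptors in this comparison is given with the ratios below.

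Muscle against each fat depot showed CD163 and ITGAM higher in all 3 depots. CD163 was higher than in muscle by 5.32 (SE 0.37) in O, 2.77 (SE 0.37) in I and 5.15 (SE 0.43) in S on the log2 scale, with edgeR adjusted p = 7.02e-11, 1.74e-06 and 1.07e-09. ITGAM was higher by 6.30 (SE 0.42) in O, 2.95 (SE 0.38) in I and 5.08 (SE 0.34) in S, with edgeR adjusted p = 3.26e-11, 1.00e-06 and 3.50e-11. The backgrounds were 33.5% of genes higher in O, 29.8% higher in I and 32.2% higher in S. In every animal with both libraries each depot lay above muscle for CD163 and ITGAM, and the groups did not overlap. Without muscle replicate 4 the smallest of these 6 values were 2.81 for CD163 and 3.02 for ITGAM, in I. Without replicate 8 CD163 stood at 5.54, 3.16 and 5.37 and ITGAM at 6.35, 3.27 and 5.12 in O, I and S. FASN was higher than in muscle by 5.29 in O, 3.17 in I and 6.01 in S, and DGAT2 by 5.31, 3.28 and 5.56 (edgeR adjusted p of 6.48e-06 or less), and the part of tissue composition was not tested. Without TMM the median of all genes moved to 0.97 in O, 0.79 in I and 0.94 in S over muscle, and CD163 then stood at 6.18, 3.50 and 5.99.

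For MMP9 against muscle the fitted values depend on the prior count, since muscle held 2 counts in all. The summed MMP9 level was 759 times that of muscle in O (95% exact interval 210 to 6266), 59.2 times in I (16.2 to 492) and 92.2 times in S (25.4 to 764), and these intervals cover counting error only. By an alternative chosen after seeing the data, the ratio in I was 26.5 without replicate 5, which held 126 of the 227 I counts. Without replicate 3 or 9, which held the 2 muscle counts, it was 1390 or 996 in O, 108 or 102 in I and 171 or 172 in S. Without replicate 4 or 8 it was 649 or 740 in O, 52.1 or 58.1 in I and 74.7 or 64.1 in S. The fits gave 9.28 (SE 0.95, edgeR adjusted p = 2.19e-08) in O and 6.14 (SE 1.09, edgeR adjusted p = 3.89e-05) in S on the log2 scale. Without muscle replicate 4 they gave 9.15 in O and 6.03 in S, without replicate 3 they gave 9.87 and 6.79, and without replicate 9 the value in S was 6.83. Without replicate 8 the fits gave 9.26 in O and 5.62 in S, the lowest value in S over the alternatives. In I the gene failed the count filter and was fitted without it at 5.45 (SE 0.97, edgeR adjusted p = 4.81e-05). The lowest I levels, 0.369 and 0.610 CPM, lie under what a count of 0 allows in muscle, so in replicates 6 and 2 I and muscle cannot be ordered at this depth.

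**Figure D2:**
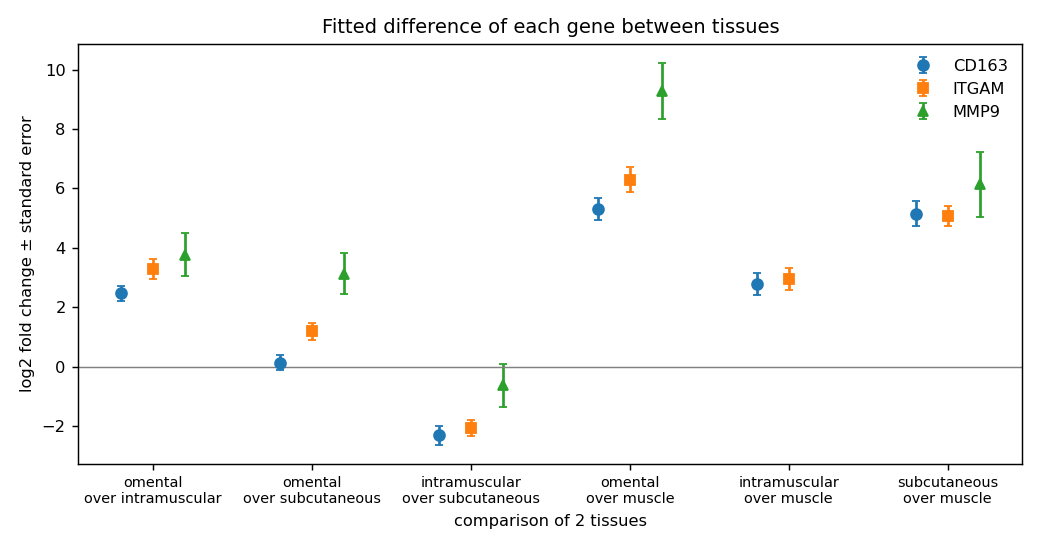
Fitted log2 fold change of each gene (vertical axis, ± standard error) in the 6 comparisons of 2 tissues, with a value above 0 meaning higher in the tissue named above. CD163 stayed near 0 between omental and subcutaneous fat while MMP9 stood at 3.13, and MMP9 is not drawn for intramuscular fat over muscle because it failed the count filter there.

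The ratio of 2 genes' counts within a library does not depend on library size or scaling, and it was compared between tissues within animals. Ratios are read only between tissues, since transcript length differs between the genes. The ratio of CD163 to ITGAM had a geometric mean of 5.55 in O (range 3.04 to 11.8), 8.93 in I (4.21 to 17.0), 10.1 in S (7.11 to 17.5) and 9.26 in muscle (5.71 to 21.4). The mean was lowest in O, and replicates 1 and 7 were the O libraries with the highest ratios, 10.9 and 11.8. In log2 units O lay under S by -0.86 (SE 0.24), lower in 7 of 9 animals (exact sign-flip permutation p = 0.0156, adjusted p = 0.0703 over 18 tests). O lay under muscle by -0.87 (SE 0.20), lower in 7 of 8 animals (exact permutation p = 0.0156, adjusted p = 0.0703), on as few as 1 ITGAM count in a muscle library. Over the alternatives this difference from muscle ranged from -1.01 to -0.46, the latter with 2 instead of 0.5 added to each count. O lay under I by -0.59 (SE 0.38), lower in 6 of 8 animals (exact permutation p = 0.164, adjusted p = 0.328). I differed from S by -0.19 (SE 0.19, exact permutation p = 0.305), and I and muscle by 0.01 (SE 0.12, exact permutation p = 0.953). With 2 instead of 0.5 added to each count, I lay above muscle by 0.370. On 1 to 10 ITGAM counts in a muscle library, the value near 0 thus depends on the added count and is not read as agreement.

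The geometric mean of MMP9 relative to each receptor was highest in omental fat among the 3 depots, without passing the test against either of the others. The ratio of MMP9 to ITGAM had a geometric mean of 0.370 in O (0.154 to 1.64), 0.215 in I (0.0515 to 0.962) and 0.0665 in S (0.00341 to 0.324). The highest ratio, 1.64, came from O of replicate 6, the only library of fat with more MMP9 than ITGAM counts, and the next in O was 0.961 in replicate 9. In log2 units O lay above S by 2.48 (SE 0.79), in 7 of 9 animals (exact permutation p = 0.0234, adjusted p = 0.0844). The ratio of MMP9 to CD163 had a geometric mean of 0.0667 in O, 0.0240 in I and 0.00659 in S, and O lay above S by 3.34 (SE 0.87), in 7 of 9 animals (exact permutation p = 0.0156, adjusted p = 0.0703). The exceptions in both ratios were replicates 7 and 8. Between I and S the MMP9 to ITGAM difference was 1.59 (SE 0.88, exact permutation p = 0.109) and the MMP9 to CD163 difference 1.79 (SE 0.92, exact permutation p = 0.0781), the latter higher in I in 7 of 8 animals. Without replicate 1, whose S library has no MMP9 count, these were 0.87 and 1.04. Between O and I the MMP9 to ITGAM difference was 0.61 (SE 0.73, exact permutation p = 0.523), higher in 4 of 8 animals, and the MMP9 to CD163 difference was 1.21 (SE 0.88, exact permutation p = 0.227), and without replicate 6 they were -0.011 and 0.545. None of the 18 ratio tests reached an adjusted p under 0.05, and the smallest unadjusted p that 8 or 9 animals allow in this exact permutation test is 0.00781 or 0.00391. Ratios of MMP9 in muscle are set by the added 0.5 and are not read, although the 18 tests of the adjustment include them.

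**Figure D3:**
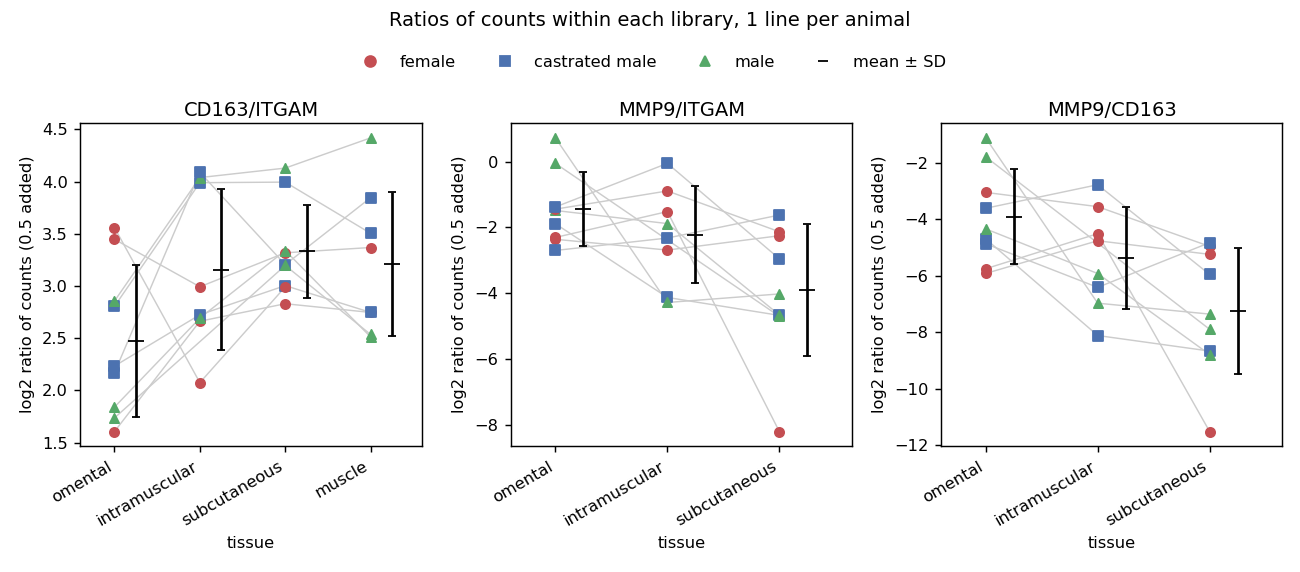
Log2 ratio of counts of 2 genes in each library (vertical axis, 0.5 added to each count), with lines joining libraries of an animal and black bars for mean ± SD; muscle is left out of the MMP9 ratios. The ratio of CD163 to ITGAM was lowest on average in omental fat, and both MMP9 ratios were lower in subcutaneous than in omental fat in 7 of 9 animals.

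Whether the 3 genes moved together across animals was examined within each tissue, over 12 relations. CD163 and ITGAM had Pearson's r = 0.792 in S (exact permutation p = 0.00896, adjusted p = 0.0538, Spearman's rho = 0.667, n = 9). In O they had r = 0.452 (exact permutation p = 0.227, rho = 0.70), in I r = 0.164 (exact permutation p = 0.690, rho = 0.333) and in muscle r = 0.771 (exact permutation p = 0.0356, adjusted p = 0.107, rho = 0.667). Without the 2 animals farthest from the median of CD163, r was 0.673 in S, 0.677 in O, -0.271 in I and 0.543 in muscle. In S, replicates 1 and 6 were low in both genes, and replicate 3 was highest in CD163 without being highest in ITGAM.

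ITGAM and MMP9 had r = 0.795 in S (exact permutation p = 0.00634, adjusted p = 0.0538, rho = 0.80, n = 9) and r = 0.717 in O (exact permutation p = 0.0327, adjusted p = 0.107, rho = 0.70, n = 9). In I they had r = 0.579 (exact permutation p = 0.131, rho = 0.524). Without the 2 animals farthest from the median of ITGAM, r was 0.415 in S, 0.269 in O and 0.276 in I. That removal narrows the range of ITGAM, and without single replicates r stayed between 0.540 and 0.847 in S and between 0.588 and 0.894 in O. The animals left out were replicates 1 and 6 in S and replicates 1 and 7 in O, all of them with low ITGAM. CD163 and MMP9 had r = -0.123 in O (exact permutation p = 0.778), 0.042 in I (exact permutation p = 0.917) and 0.366 in S (exact permutation p = 0.333). O of replicate 6 was the lowest library in CD163, at 295 CPM, and the next to highest in MMP9, at 135 CPM, and without it r in O was 0.432. None of the 12 relations passed an adjusted p of 0.05, but the smallest adjusted p by exact permutation, 0.0538 for the 2 relations in S, lay close to it. The 12 include the relations of MMP9 in muscle, which has too few counts to be read. An adjustment without them, which would be less strict, was not run, so the miss in S is not read as an absence of relation.

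**Figure D4:**
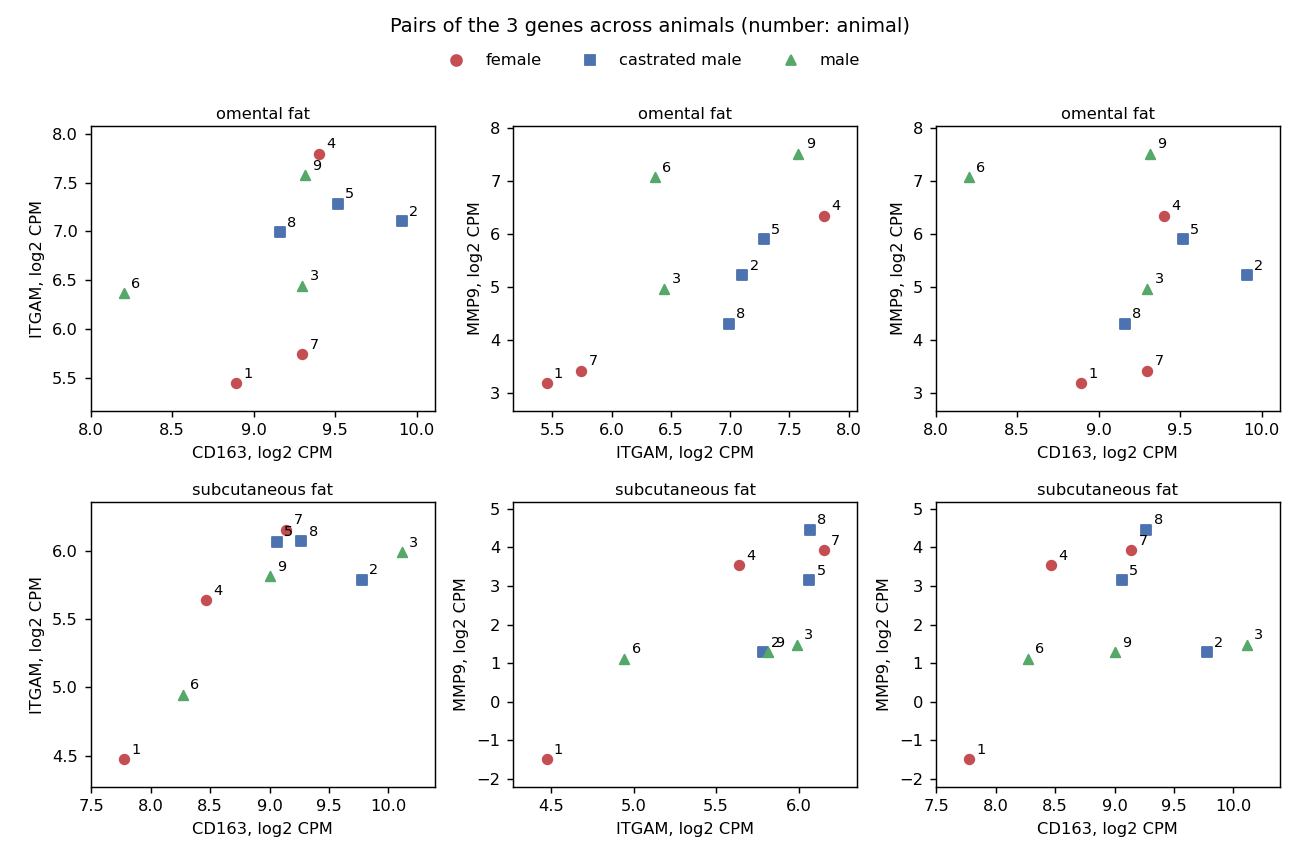
Pairs of the 3 genes (log2 CPM on both axes) across 9 animals in omental (upper row) and subcutaneous fat (lower row), with the replicate number beside each point and symbols for the sex labels. Replicate 1 is at the lower left of each subcutaneous panel, and replicate 6 stands apart in omental fat with low CD163 and high MMP9.

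An animal high in a depot was not shown to be high in another depot. CD163 had r = 0.651 between O and I (exact permutation p = 0.0744, n = 8), 0.615 between O and S (exact permutation p = 0.0762, n = 9) and 0.679 between I and S (exact permutation p = 0.0658, n = 8), each with an adjusted p = 0.457 over 18 relations by the exact permutation test. Spearman's rho was 0.524, 0.383 and 0.619. Without the 2 animals farthest from the median, r was -0.119 between O and I, 0.485 between O and S and 0.565 between I and S. For O and I the animals left out, replicates 2 and 6, had the highest and the lowest CD163 in O, so the range was narrowed. Without single replicates r stayed between 0.415 and 0.879 for O with I, between 0.513 and 0.712 for O with S and between 0.594 and 0.917 for I with S. ITGAM had r = -0.328 between O and I, 0.456 between O and S and 0.0985 between I and S. MMP9 had r = -0.149, 0.031 and 0.136 for the same pairs. None of the 18 relations, which include those of MMP9 with muscle, passed an adjusted p of 0.05.

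The sex labels gave 3 animals per label and no call for these genes. Over all genes, the edgeR quasi-likelihood test of the sex labels called 0.0372% of genes in O, 0.0146% in I, 0.0377% in S and 0.00828% in muscle at an FDR under 0.01. CD163 in muscle came nearest (unadjusted p = 0.00671, edgeR adjusted p = 0.365), with 20.4 to 33.4 CPM in castrated males, 4.04 to 15.4 in males and 6.24 and 8.08 in the females. The likelihood ratio test gave it an unadjusted p = 7.88e-04 and an edgeR adjusted p = 0.0476, over the threshold of 0.01, and called 72 genes in muscle. In O, S and I the adjusted p of the 3 genes was 0.622 or more in the quasi-likelihood test of edgeR and 0.606 or more in the likelihood ratio test. ITGAM and MMP9 failed the count filter in muscle and were not tested there.

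The ratio of O to S levels of MMP9 ranged from 0.696 to 88.2 among the 8 animals with a count in both depots. The males had O levels of 30.9, 135 and 183 CPM and S levels of 2.43, 1.81 and 2.08, so that O was 12.7, 74.8 and 88.2 times S. In the castrated males the ratio of O to S was 17.8, 7.0 and 0.901 for replicates 2, 5 and 8. In the females it was 7.23 for replicate 4 and 0.696 for replicate 7, and replicate 1 had 8.71 CPM in O with no count in S. The interaction of sex label and depot had an unadjusted p = 0.0371 for MMP9 (edgeR adjusted p = 0.663), with the O over S difference larger in males than in castrated males by 3.55 on the log2 scale. For CD163 the unadjusted p was 0.0521 and for ITGAM 0.856, with adjusted p of 0.672 and 0.973 in edgeR. That test called 0 of 13808 genes (0.00%), with 1036 at an unadjusted p under 0.05, while the likelihood ratio test called 43, none of them among these 3 genes.

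**Figure D5:**
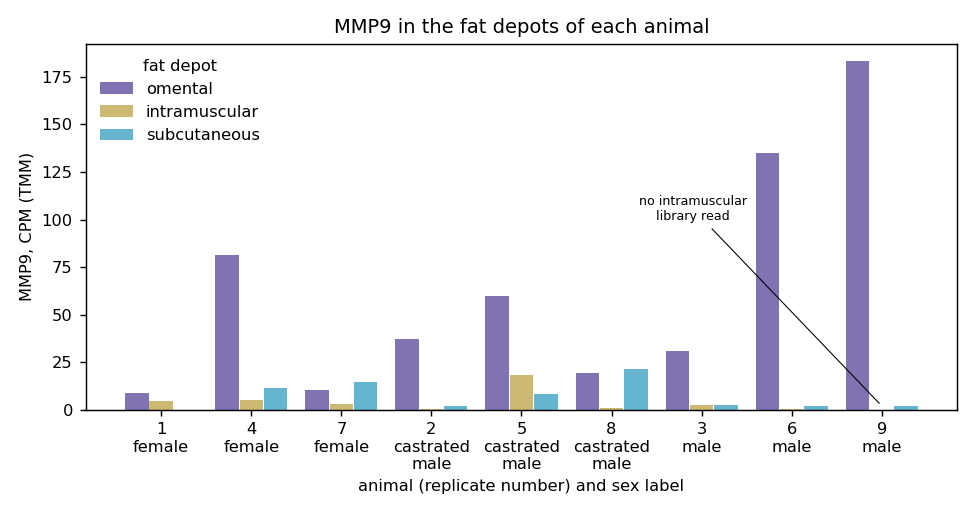
Level of MMP9 (CPM with TMM, vertical axis, bars from 0) in omental, intramuscular and subcutaneous fat of each animal, ordered by sex label. The 2 tallest bars are omental fat of the males 9 and 6, at 183 and 135 CPM, and subcutaneous fat exceeded omental fat in replicates 7 and 8.

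The genes most like each of the 3 were sought by Pearson's r of log2 CPM over the 34 libraries after each tissue's mean was subtracted, among 12731 genes, as a description in which points share animals and library composition. For CD163 the first was ENSBTAG00000001009 (r = 0.874), and the next 4 had r from 0.792 to 0.801. For ITGAM the first was ENSBTAG00000007661 (r = 0.869), and the next 4 had r from 0.749 to 0.814. For MMP9 the first 5 had r from 0.694 to 0.788. None of these genes could be paired with a name here. By the same measure ITGAM ranked 193 for CD163 (r = 0.587), CD163 ranked 93 for ITGAM, MMP9 ranked 181 for ITGAM (r = 0.512) and ITGAM ranked 51 for MMP9. CD163 and MMP9 had r = 0.072. Over the 26 fat libraries alone the order turned, with MMP9 ranked 51 for ITGAM (r = 0.691) and CD163 ranked 328 (r = 0.474), ITGAM ranked 449 for CD163 and 17 for MMP9, and CD163 and MMP9 at r = 0.153. With the tissue means left in, CD163 and ITGAM had r = 0.956 and ranked 33 and 37 for each other, a measure that includes the differences between tissues.

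The monocyte chemokine CCL2 and its receptor CCR2 were read beside them. CCR2 was higher in O than in I by 2.81 (SE 0.52, edgeR adjusted p = 2.30e-04), as the 3 myeloid genes were, on 0 to 10 counts per I library. CCL2 was lower in O than in I, at -3.65 (SE 0.36, edgeR adjusted p = 1.54e-07), with 601 ± 231 CPM in I (SD, n = 8) against 48.6 ± 32.3 in O (n = 9). After subtraction of tissue means CCL2 had r = 0.341 with CD163, 0.035 with ITGAM and -0.063 with MMP9.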

How the data were processed

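Raw counts per Ensembl gene were deposited by the authors, who selected RNA with oligo-dT beads, aligned the read pairs to bosTau6 with TopHat2 (2.0.2) and counted them with HTSeq (0.5.3p3), per the labels and methods. The strand setting is not given in the sources used here, and labels and methods name different RNA kits. Each table held 24596 genes and 5 lines that name no gene. These lines were left out, and 28.9% to 36.7% of the counts of a table fell on genes. The labels name no batch.

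Genes were kept by filterByExpr (count minimum 10), scaled with TMM and compared for 2 tissues at a time with the quasi-likelihood test of edgeR 4.0.16 (R 4.3.3, limma 3.58.1), without a term for the animal, with Benjamini-Hochberg adjustment over all genes tested and an FDR under 0.01. Levels are CPM, and log2 CPM used a prior count of 2. Count ratios had 0.5 added to each count and were compared by exact two-sided sign-flip permutation within animals. Relations were tested by exact two-sided permutation of pairings (Python 3.11.15, numpy 2.4.6, scipy 1.17.1, pandas 2.3.3, matplotlib 3.10.9). The contrast scripts were tested on counts simulated for O and S, with the same dispersion for every gene and no animal effect. That test does not cover a gene as variable between animals as MMP9. Spread between animals, counting error and, for MMP9, few counts limit precision.

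Alternatives were the likelihood ratio test, DESeq2 1.42.0, RLE or no scaling, no filter, more than 1 CPM, the replicate block, sex as a covariate, 1 fit over 4 tissues, an FDR under 0.05, other added counts, unpaired ratios, deviations from sex means, and leaving out each replicate or muscle replicate 4. Replicate numbers come from animal numbers in the labels. Deviations of O and S libraries of an animal had a median r of 0.413, against -0.034 for different animals, and 8 of 9 libraries correlated best with their own animal. For the other pairs of tissues the median r within an animal was 0.028 to 0.258 (lowest single value -0.296, in I with S), and 3 of 8 (O with I, S with muscle) to 6 of 7 (I with muscle) correlated best with their own, so within-animal comparisons there rest on the labels. No 2 libraries of a tissue agreed within sampling noise (lowest chi-square per degree of freedom 12.7 over 128 pairs).

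The named genes are the 3 members, genes of 14 marker and partner lists that match an identifier, and the 5 genes most like each member. None of the 108 list genes matched, because names could be paired with 31 identifiers only, through the study's primer table, so the lists were not analysed here. FASN, DGAT2, TPM2, EEF1A2, CCL2 and CCR2 were added from those 31 after their values were seen. The members and lists were chosen with earlier results of these data known.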

Additional observations from a re-analysis of the deposited data

Results flagged for a closer look

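Of 24 groups of levels and ratios examined, 1 held a library far from the others. The log2 ratio of MMP9 to ITGAM in subcutaneous fat was -8.19 in replicate 1, where MMP9 had no count, against -4.70 to -1.62 in the other 8 animals. The gap to the nearest animal was 0.532 of the whole range. Chance marks about 1 in 20 such groups. That library was also the lowest of subcutaneous fat in CD163, at 219 CPM, and in ITGAM, at 21.8 CPM. The value itself depends on the 0.5 added to a count of 0.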

How the results depend on the processing

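Of the results on tissues, CD163 and ITGAM kept their direction and call between O and I, I and S, and each depot and muscle under every alternative run, as did MMP9 between O and I and between O and muscle. MMP9 between S and muscle kept them under the 19 alternatives that gave a value, but failed the count filter without replicate 7. ITGAM between O and S passed an FDR of 0.01 under the likelihood ratio test (1.19), DESeq2 (1.20), the replicate block (1.11) and 1 fit over 4 tissues (1.20), passed an FDR under 0.05 at 1.19, and ranged from 1.02 to 1.36 without single replicates, passing without replicate 1 or 7. MMP9 between O and S missed 0.01 with the replicate block (3.04) and with sex as a covariate (2.94), and ranged from 2.60 to 3.64 without single replicates. The replicate block changed no other call. Unpaired, with no replicate block, the O minus S ratios of MMP9 to ITGAM (2.48) and of MMP9 to CD163 (3.34) passed an adjusted p of 0.05 (permutation, adjusted p = 0.0233), and CD163 to ITGAM in I minus muscle turned to -0.052. Without single replicates that last ratio ran from -0.073 to 0.071, and over all the alternatives it reached 0.370. MMP9 to ITGAM in O minus I ran from -0.011 to 0.892 without single replicates. Within deviations from sex means, r turned to 0.11 both for CD163 with MMP9 in O and for MMP9 in O with I.

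Without single replicates r of CD163 with ITGAM in S ranged from 0.625 to 0.839, passing without replicate 2 or 3. For ITGAM with MMP9 it ranged from 0.588 to 0.894 in O, passing without replicate 6, and from 0.540 to 0.847 in S, passing without replicate 3 or 4. For CD163 with MMP9 the ranges were -0.320 to 0.432 (O), -0.362 to 0.394 (I) and -0.153 to 0.540 (S). Between depots, ITGAM ranged from -0.027 to 0.726 for O with S and -0.131 to 0.365 for I with S, and MMP9 from -0.484 to 0.251 for O with I, -0.593 to 0.250 for O with S and -0.0098 to 0.463 for I with S. Over the alternatives other than leaving out 2 animals, r of CD163 with ITGAM ranged from 0.381 to 0.546 in O. It ranged from 0.026 to 0.327 in I and from 0.429 to 0.876 in muscle. For ITGAM with MMP9 in I the range was 0.363 to 0.664. The cause of these changes was not tested. Depth limits ITGAM and MMP9 in muscle and MMP9 in I and S.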
